A study of Rattus norvegicus with 6 samples.

Results

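The genes described here are members of the S100 family together with Ager, the gene of the receptor RAGE, in bulk RNA of rat tail intervertebral discs. The list held 10 names (S100a7a, S100a8, S100a9, S100a1, S100a4, S100a6, S100a10, S100a11, S100a13 and Ager), and 9 of them were found by name among the 30562 genes of the deposited table. Expression of S100a13 was not analysed here. The list was chosen because S100a7a was higher in one of the groups compared, so it was selected on the same contrast that is described, and no p value is given for a member. Counts of members called stand beside the same share of all genes, and nothing is read from them.

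S100 proteins are small calcium-binding proteins with EF-hand motifs, most of which act as dimers. Inside the cell they bind partners such as annexins, myosin and ion channels, and several of them are released by stressed or activated cells and then act as alarmins through RAGE and the TLR4 complex. S100A8 and S100A9 form calprotectin, a major cytosolic protein of neutrophils, while S100A1 and S100B are known from cartilage and from disc cells of notochordal origin.

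The study punctured the Co6-Co7 tail disc of male Sprague-Dawley rats aged 12 weeks (genotype WT in the records). AF-PTK@LEV@SPP1 is a liposome fused with bacterial outer membrane vesicles that carries a peptide binding annulus fibrosus cells on a linker cut by reactive oxygen species, and an siRNA against Spp1. By the methods it was injected into the disc in 10 µL at 1 mg siRNA per kg, starting 24 h after surgery and followed over 8 weeks, whereas the sample records give 14 days. Controls were punctured discs given PBS by the methods and no treatment by the records. Each group had 3 libraries, from separate animals by the methods. The 6 libraries held 15560728 to 17942989 counts, at which 3 counts correspond to 0.154 to 0.193 CPM (reads per library, scaled by its normalized total).

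Several measurements bear on the labels. Control libraries 2 and 3 varied against each other 1.33 times as much as counting noise, and 16 of 14393 genes (0.111%) differed between them, against 39.5% to 56.6% in the other pairs of a group. They were therefore averaged and counted as 1 sample in every mean and SD, which leaves n = 2 control and n = 3 labelled samples, and the fit was repeated with their counts summed. Spp1, the target of the siRNA, stood at 8115, 4406 and 4413 normalized CPM in control libraries 1, 2 and 3 and at 8047, 6896 and 8452 in those labelled AF-PTK@LEV@SPP1, numbered labelled libraries 1, 2 and 3. In this bulk RNA the target was thus not lower in the labelled libraries. The paper aims the siRNA at macrophages, and Spp1 in single cell types was not measured here, so these values do not settle the labels. Each direction below is given by the labels. The sample records also describe macrophages sorted from mice. The gene identifiers are those of rat, and Col1a1, a defining gene of disc tissue, stood at 31888 to 64016 normalized CPM, while the macrophage gene Adgre1 stood at 15.3 to 42.8.

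Among the 9 members, S100a7a and S100a1 were higher in each labelled library than in each control library, S100a10 and S100a11 were lower, and S100a8, S100a9, S100a4, S100a6 and Ager overlapped between the groups. All 9 passed the filter on low counts. In the fit across all genes 4 of the 9 were called at an adjusted p under 0.05 (edgeR), beside 18.1% of the 15042 genes tested, with 2 higher (8.20% of all genes) and 2 lower (9.93%). The groups did not overlap for the same 4 members, beside 42.3% of all genes. With control libraries 2 and 3 summed, edgeR called 0 of the 9 members, beside 3.70% of 15537 genes. With all 6 libraries DESeq2 called 4 members beside 26.5% of all genes, limma-voom 3 beside 16.8%, and edgeR with a block for the replicate number 1 beside 4.93%. Leaving out 1 library, edgeR called 4 members beside 24.3% of all genes without control library 1, 0 beside 3.62% and 3.66% without control library 2 or 3, 4 beside 17.4% without labelled library 1, 3 beside 10.3% without labelled library 2, and 1 beside 7.00% without labelled library 3. The median log2 fold change (labelled minus control) was 0.31 over the members and 0.05 over all genes.

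S100a7a encodes a psoriasin-type S100 protein, known as an antimicrobial and chemotactic product of inflamed epithelium. It stood at 2.51, 0.578 and 0.610 normalized CPM in control libraries 1, 2 and 3, from 49, 9 and 10 reads. In labelled libraries 1, 2 and 3 it stood at 40.0, 13.8 and 10.02 normalized CPM, from 681, 229 and 176 reads. Each labelled library was above each control library, and the lowest labelled value was 3.99 times the highest control value. Counting alone (95% Poisson intervals, which cover no difference between animals) allowed 1.86 to 3.32 in control library 1 and 8.59 to 11.6 in labelled library 3. The mean was 1.55 ± 1.36 normalized CPM in control (SD, n = 2) and 21.3 ± 16.3 in the labelled samples (SD, n = 3), and the log2 fold change was 4.06 with an SE of 0.81, or 3.82 with an SE of 0.96 when the near-identical pair was summed. The spread within each group was wide. Control library 1 was 4.23 times the mean of libraries 2 and 3, and the log2 fold change was 5.14 without that library and 3.19 without labelled library 1.

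**Figure D1:**
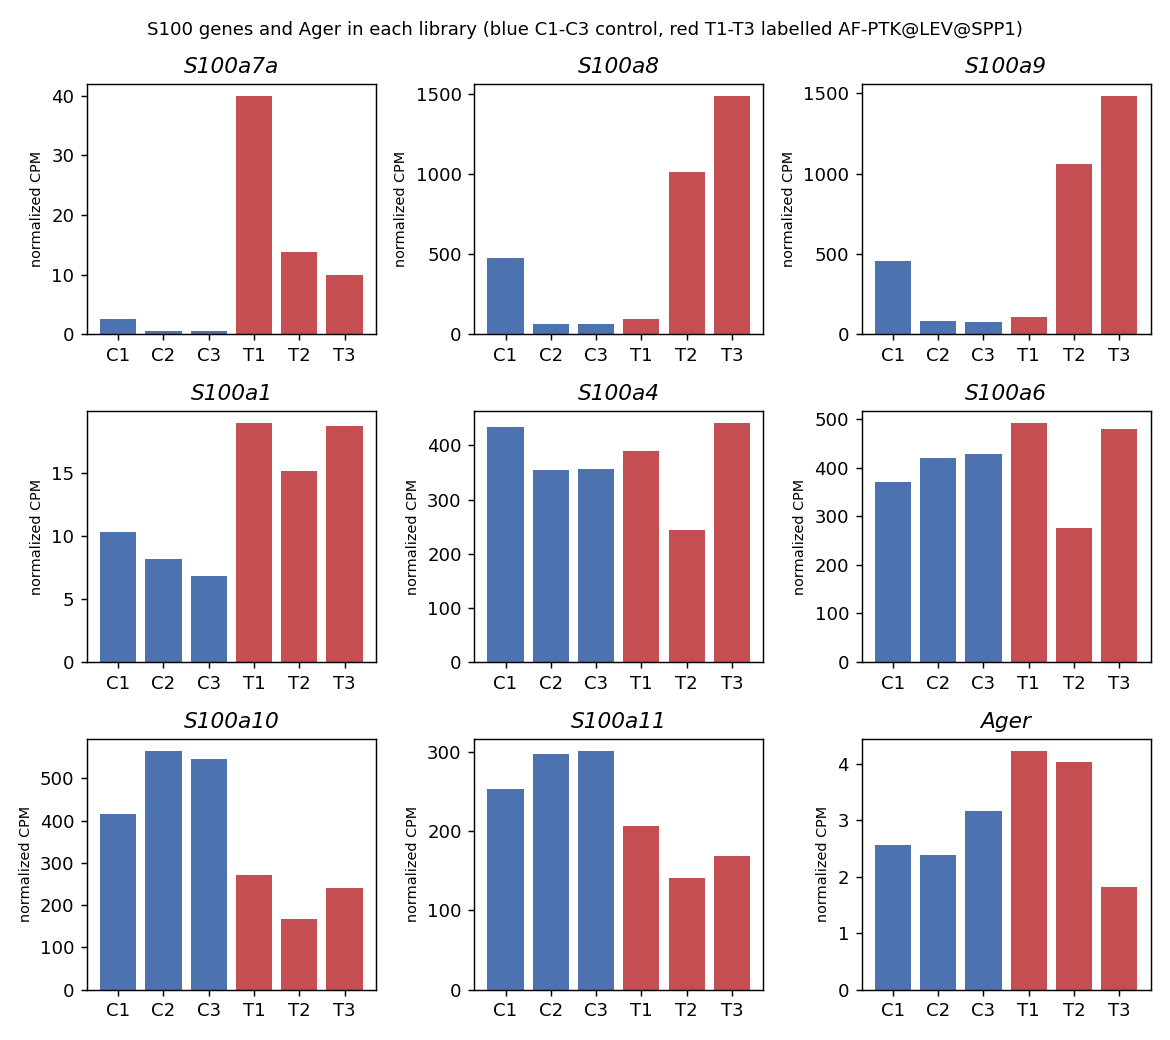
Normalized CPM (vertical axis, starting at 0 and scaled for each gene) of the 9 members in control libraries C1 to C3 (blue) and libraries T1 to T3 labelled AF-PTK@LEV@SPP1 (red), 1 bar a library. S100a7a and S100a1 are higher in each red bar than in each blue bar, S100a10 and S100a11 are lower, and S100a8 and S100a9 are low in T1 and high in T2 and T3. C2 and C3 are the near-identical pair.

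The genes whose profile over the 5 distinct samples was closest to that of S100a7a, by the root mean square difference of centred log2 CPM, were Nkain4 (0.225), Chrm3 (0.241), Celsr1 (0.338), Gpc3 (0.352) and Sh3gl2 (0.483), where the median over 13033 genes was 2.03. Gpc3, a cell surface glypican, stood at 53.3, 8.61 and 8.48 normalized CPM in the control libraries and at 403, 161 and 151 in the labelled ones. Its highest value was in labelled library 1 and its highest control value in library 1, the order that S100a7a had. This closeness is a description of 5 samples.

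Because S100a7a is known from keratinocytes, markers of that cell type were read beside it. Of 12 markers 10 were matched and 6 were tested, and their summed level was 26.2, 26.6 and 23.1 normalized CPM in control and 48.0, 36.1 and 40.0 in the labelled libraries. The defining marker Krt5 stood at 0 to 0.235 normalized CPM, which is at most 4 reads, Ivl had 0 reads in each library, and Krt14 was not matched. Perp, a desmosome-associated p53 target, was the most abundant gene of the list by its mean over the libraries, though Dsg3 was above it in control libraries 2 and 3. Perp rose from 8.47, 3.66 and 2.68 to 32.3, 14.2 and 17.8 (log2 fold change 2.11, SE 0.52, edgeR adjusted p = 0.0396). That adjusted p was 0.130 with the near-identical pair summed and 0.0566 to 0.144 without any single library other than control library 1. Dsg1, a desmosomal cadherin, fell from 1.18, 1.09 and 0.915 to 0.117, 0.181 and 0.228 (log2 fold change −2.55, edgeR adjusted p = 0.00991, and 0.0515 with the pair summed). These values came from 23, 17 and 15 reads in control and 2, 3 and 4 in the labelled libraries, near the floor of 3 counts. Trp63, the remaining defining marker, stood at 0.386 to 0.616 in control and 0.342 to 1.33 in the labelled libraries.

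Genes of notochordal and nucleus pulposus cells were read beside S100a7a. Tbxt, the notochordal transcription factor brachyury, stood at 142, 17.4 and 17.3 normalized CPM in control and at 756, 308 and 332 in the labelled libraries. Its edgeR adjusted p was 0.0789, and 0.195 with the near-identical pair summed. Cd24, a surface protein of nucleus pulposus cells, rose from 301, 226 and 223 to 1701, 647 and 819 (log2 fold change 2.08, SE 0.39, edgeR adjusted p = 0.0196, and 0.0913 with the pair summed). Krt8, a keratin of nucleus pulposus cells that was chosen after its values were seen, stood at 287, 67.0 and 64.6 in control and at 1476, 477 and 523 in the labelled libraries. The ratio of S100a7a reads to Tbxt reads was 0.0177, 0.0332 and 0.0353 in control and 0.0529, 0.0448 and 0.0302 in the labelled libraries, so it spanned 2.99-fold where S100a7a itself spanned 69.2-fold. Per read of Cd24, S100a7a gave 0.00835, 0.00256 and 0.00274 in control and 0.0235, 0.0213 and 0.0122 in the labelled libraries, a span of 9.17-fold with no overlap. Per read of Krt8, S100a7a gave 0.00876, 0.00864 and 0.00944 in control and 0.0271, 0.0289 and 0.0192 in the labelled libraries, values that did not overlap.

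Of the 10 disc and cartilage markers 9 were matched and tested. By edgeR 3 were called higher and 0 lower, beside 8.20% and 9.93% of all genes. Their summed level was 50404, 74256 and 74470 normalized CPM in control and 107007, 75096 and 97690 in the labelled libraries, with Col1a1 the most abundant. Besides Cd24 the called genes were Chad, a matrix protein of cartilage, at 222, 465 and 466 against 2872, 1798 and 3260 (log2 fold change 2.78, edgeR adjusted p = 0.00844), and Cilp, a matrix protein of cartilage and disc, at 32.6, 37.5 and 41.2 against 249, 170 and 284 (log2 fold change 2.66, edgeR adjusted p = 0.00240). Both stayed under 0.05 with the pair summed, at 0.0454 and 0.0221. The defining genes Col2a1, Acan and Col1a1 had edgeR adjusted p of 0.334, 0.340 and 0.451. Other genes of the list did not follow S100a7a within the controls, since Acan, at 2303, 4393 and 4435, and Scx, a tendon and annulus transcription factor, at 3.85, 15.1 and 14.6, were lowest in control library 1, where S100a7a was highest of the controls, and so were Col2a1, Col1a1, Fmod, Chad and Cilp. Scx had a log2 fold change of −0.64. In bulk RNA, a change in the number of cells of a type and a change in RNA per cell cannot be told apart, and the part of these markers in the S100a7a values was not tested.

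S100a8 and S100a9, the subunits of calprotectin, had a pattern of their own. S100a8 stood at 475, 67.2 and 64.5 normalized CPM in control libraries 1, 2 and 3 and at 99.0, 1010 and 1489 in labelled libraries 1, 2 and 3. S100a9 stood at 457, 84.9 and 78.3 in control and at 107, 1059 and 1486 in the labelled libraries. The groups overlapped for both genes, since labelled library 1 was below control library 1, while labelled libraries 2 and 3 were above each control library. For S100a8, labelled library 1 was 1.505 times the near-identical control pair. Labelled libraries 2 and 3 held 10.2 and 15.0 times as much S100a8 as labelled library 1, and control library 1 held 7.22 times the mean of libraries 2 and 3.

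Means did not separate beyond this spread. S100a8 had a mean of 270 ± 289 normalized CPM in control (SD, n = 2) and 866 ± 706 in the labelled samples (SD, n = 3), with a log2 fold change of 2.10 and an SE of 1.17. For S100a9 the log2 fold change was also 2.10, with an SE of 1.09. A single library moved these values widely, since S100a8 had a log2 fold change of 3.71 without control library 1 and 1.45 without labelled library 3, and S100a9 had 3.43 and 1.496.

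The subunits kept close to each other in each library. The ratio of S100a8 to S100a9 reads was 1.04, 0.791 and 0.824 in control and 0.925, 0.953 and 1.00 in the labelled libraries, a span of 1.31-fold where S100a8 itself spanned 23.1-fold. S100a9 was the closest of 13032 genes to S100a8 over the 5 distinct samples (root mean square difference 0.125, median of all genes 1.80). The next closest were Fpr1 (0.223), a receptor for bacterial formyl peptides, Cebpe (0.224), a transcription factor of granulocyte maturation, Ifitm6 (0.243) and Ankrd22 (0.257). The same genes were nearest to S100a9, with Ifitm6 at 0.160, Cebpe at 0.188, Fpr1 at 0.233 and Ankrd22 at 0.283.

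Neutrophil markers were read beside calprotectin. All 11 were matched and 10 were tested, and their summed level was 326, 327 and 330 normalized CPM in control and 125, 1204 and 1432 in the labelled libraries. The near-equal sums in control rested on Lcn2, singled out after its values were seen. Without it the list summed to 300, 44.9 and 42.5 normalized CPM in control and 115, 1120 and 1324 in the labelled libraries, and control library 1 was 6.86 times the mean of libraries 2 and 3, beside 7.22 for S100a8. Ngp, a granule protein, was the most abundant by its mean over the libraries, though Mmp8 was above it in control library 1 and Lcn2 in control libraries 2 and 3. It stood at 70.3, 3.34 and 2.93 in control and 26.1, 381 and 449 in the labelled libraries. The defining genes of azurophilic granules followed it, with Mpo (myeloperoxidase) at 32.1, 0.450 and 0.732 against 22.1, 140 and 188, and Elane (neutrophil elastase) at 10.8, 0.321 and 0.427 against 3.52, 29.5 and 34.4. Csf3r, the G-CSF receptor, moved less, at 16.9, 14.8 and 14.2 against 5.23, 28.9 and 31.9. Lcn2, a granule protein that other cells also make under inflammation, was highest in the near-identical control pair, at 25.8, 282 and 288 against 10.1, 83.4 and 108.

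By edgeR 0 of the 10 tested neutrophil markers were called, 0 had an unadjusted p under 0.05, and DESeq2 and limma-voom each called 0. This count depended on single libraries, since edgeR called 2 (Csf3r and Cxcr2) without labelled library 1, beside 17.4% of all genes. The replicate block called 1 (Lcn2), beside 4.93%. Leaving out control library 1 leaves the near-identical pair as the only control, and the log2 fold change was then 7.60 for Mpo, 5.87 for Elane and 6.50 for Ngp. Without labelled library 1 the edgeR adjusted p was 0.0135 for Csf3r. The median log2 fold change of the 10 markers with all 6 libraries was 2.42. How far the ratio of S100a8 reads to marker reads varied over the libraries differed between these 10. It varied least for Fcnb, a secreted ficolin, at 12.7 to 23.2 over the 6 libraries (1.82-fold), and for Mmp8, the neutrophil collagenase, at 3.81 to 7.77 (2.04-fold), where S100a8 itself spanned 23.1-fold. For the 8 others it spanned 4.95-fold (Cxcr2) to 82.3-fold (Lcn2). S100a8 reads per Csf3r read were 28.1, 4.52 and 4.54 in control and 18.9, 35.0 and 46.7 in the labelled libraries. Per Mpo read they were 14.8, 149 and 88.1 in control and 4.47, 7.19 and 7.94 in the labelled libraries, so S100a8 in the near-identical control pair came with little Mpo. The part of these markers in the calprotectin values was not tested.

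**Figure D2:**
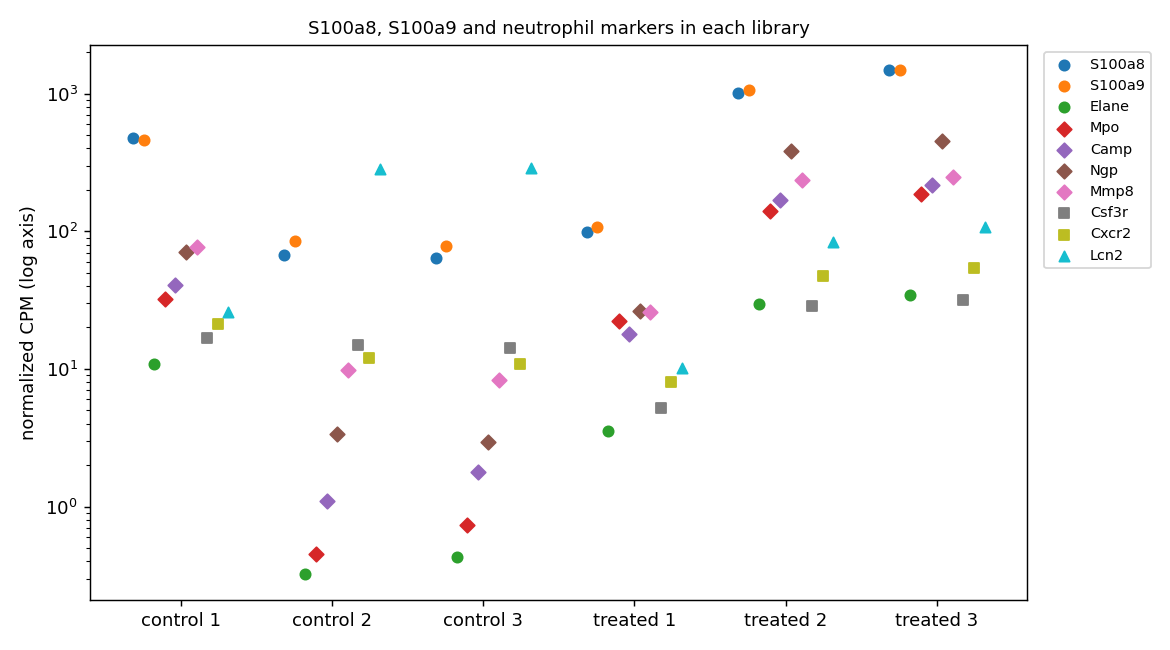
Normalized CPM (vertical log axis) of S100a8, S100a9 and 8 neutrophil markers in each of the 6 libraries, 1 point a gene and library, with treated 1 to 3 being those labelled AF-PTK@LEV@SPP1. S100a8, S100a9 and the markers other than Lcn2 are high in treated 2 and 3, and Mpo and Elane are under 1 in control 2 and 3.

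S100a1, a regulator of ryanodine receptors and of calcium handling in muscle that is also found in chondrocytes, was higher in each labelled library. It stood at 10.4, 8.16 and 6.83 normalized CPM in control and at 19.0, 15.2 and 18.8 in the labelled libraries. The means were 8.93 ± 2.03 (SD, n = 2) and 17.7 ± 2.13 (SD, n = 3), and the log2 fold change was 1.06 with an SE of 0.19. Leaving out each library in turn gave 0.92 to 1.23.

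S100b, its close relative from cartilage and Schwann cells, is 1 of 10 other S100 genes listed, of which 8 were matched and 5 tested. Markers of Schwann cells are not described here, so none is set beside S100b, and they enter only counts of calls given below. S100b rose from 256, 249 and 233 to 411, 360 and 391 normalized CPM (log2 fold change 0.66, SE 0.10, edgeR adjusted p = 0.0118). The adjusted p was 0.0744 with the near-identical pair summed, and 0.0733 and 0.0764 without control library 2 or 3. Reads of S100a1 per read of S100b were 0.0405, 0.0328 and 0.0294 in control and 0.0461, 0.0422 and 0.0480 in the labelled libraries, a span of 1.64-fold.

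The other called gene of the family was S100a5, a calcium-binding protein known from olfactory neurons. It fell from 3.34, 3.34 and 4.27 to 1.17, 0.542 and 0.911 normalized CPM (log2 fold change −2.05, SE 0.33, edgeR adjusted p = 0.0133). The adjusted p was 0.0601 with the pair summed and 0.0548 without labelled library 3. S100a14 stood at 0.305 to 0.462 in control and 0.587 to 1.02 in the labelled libraries, with an edgeR adjusted p of 0.0932, and S100a3 and S100a16 had log2 fold changes of 0.09 and 0.03. Both copies of S100a7l2, psoriasin-type genes that lie 313069 bases or more beyond S100a9, had 0 reads in each library, which allows up to 0.193 CPM. Of the fused-type S100 genes of cornified epithelium 4 of 7 were matched, and only Tchh was tested, with a log2 fold change of −0.05. By edgeR it was not called, and 0 genes of that list had an unadjusted p under 0.05 or a call by DESeq2 or limma-voom.

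S100a4 and S100a6 did not separate the groups. S100a4, which binds nonmuscle myosin and is used as a marker of fibroblasts, stood at 433, 354 and 357 normalized CPM in control and at 391, 244 and 441 in the labelled libraries (log2 fold change −0.09, SE 0.23). S100a6, or calcyclin, stood at 370, 419 and 428 in control and at 491, 276 and 478 in the labelled libraries (log2 fold change 0.03, SE 0.23). Labelled library 2 was lowest for both genes. The sign depended on single libraries, with S100a4 between −0.27 and 0.12 and S100a6 between −0.14 and 0.26 when each library was left out. The ratio of S100a4 to S100a6 reads spanned 0.795 to 1.17.

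S100a10 and S100a11, which bind annexins at membranes, were lower in each labelled library. S100a10, or p11, stood at 416, 565 and 547 normalized CPM in control and at 270, 166 and 240 in the labelled libraries. The means were 486 ± 99.0 (SD, n = 2) and 225 ± 53.3 (SD, n = 3), and the log2 fold change was −1.18 with an SE of 0.22. S100a11 stood at 253, 298 and 301 in control and at 206, 140 and 169 in the labelled libraries, with means of 276 ± 32.7 (SD, n = 2) and 172 ± 32.9 (SD, n = 3) and a log2 fold change of −0.73 with an SE of 0.16. Leaving out each library in turn gave −1.36 to −0.999 for S100a10 and −0.91 to −0.60 for S100a11.

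Anxa2, the partner with which p11 forms a heterotetramer, fell from 846, 1079 and 1091 to 539, 349 and 504 normalized CPM (log2 fold change −1.12, SE 0.21, edgeR adjusted p = 0.0192). The adjusted p was 0.0846 with the near-identical pair summed and 0.0600 without labelled library 3. S100a10 and Anxa2 kept a nearly fixed ratio, since S100a10 reads per Anxa2 read were 0.492, 0.524 and 0.502 in control and 0.502, 0.477 and 0.476 in the labelled libraries, a span of 1.10-fold. Anxa1, the partner of S100A11, stood at 865, 1316 and 1293 in control and at 653, 597 and 858 in the labelled libraries (edgeR adjusted p = 0.0742, and 0.219 with the pair summed). The ratio of S100a11 to Anxa1 reads spanned 1.60-fold.

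Of the 16 intracellular partners listed 15 were tested. By edgeR 1 was called higher and 4 lower, beside 8.20% and 9.93% of all genes. Il1a, a cytokine precursor released together with S100A13, fell from 9.65, 11.7 and 12.3 to 0, 0.181 and 0.114 normalized CPM, from 572 reads in the 3 control libraries to 5 in the 3 labelled libraries. That is 114 times lower, with a 95% counting interval of 48.5 to 352 (edgeR adjusted p = 0.00235, and 0.0213 with the pair summed). Fgf1, released by the same route, went the other way, at 37.9, 12.3 and 13.4 in control and 172, 69.7 and 56.6 in the labelled libraries. Its edgeR adjusted p was 0.0546, and 0.171 with the pair summed. Cacybp, which binds S100A6, fell from 73.0, 69.7 and 68.0 to 43.9, 51.1 and 54.1 (edgeR adjusted p = 0.0231, and 0.0871 with the pair summed and 0.0548 without labelled library 2). Trp53, whose protein binds several S100 proteins, had a log2 fold change of −0.32 (edgeR adjusted p = 0.0397), and Ryr2, the cardiac ryanodine receptor, had 1.59 (edgeR adjusted p = 0.0448). These 2 calls were lost when any single library was left out, with adjusted p of 0.0532 to 0.1499 for Trp53 and 0.0663 to 0.157 for Ryr2. Myh9, the nonmuscle myosin bound by S100A4, stood at 428, 498 and 502 in control and 424, 487 and 459 in the labelled libraries.

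Ager, the receptor gene, was low in each library. It stood at 2.57, 2.38 and 3.17 normalized CPM in control and at 4.23, 4.04 and 1.82 in the labelled libraries, from 32 to 72 reads. The groups overlapped, since labelled library 3 was the lowest of the 6, and the log2 fold change was 0.31 with an SE of 0.36. Ager overlaps Rnf5, on the opposite strand, by 96 bases, and the use of strand in counting is not given in the sources used here.

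Of the other receptors of S100 proteins 9 of 10 were matched and tested. By edgeR 0 were called higher and 2 lower, beside 8.20% and 9.93% of all genes. Both called genes belong to the complex of TLR4. Cd14, the coreceptor, fell from 151, 133 and 134 to 38.1, 36.1 and 41.4 normalized CPM (log2 fold change −1.85, SE 0.10, edgeR adjusted p = 0.00112). Ly96, which encodes MD-2, fell from 28.3, 27.2 and 28.7 to 10.2, 12.7 and 14.3 (log2 fold change −1.18, SE 0.14, edgeR adjusted p = 0.00591). Both were called with the near-identical pair summed, at 0.0119 and 0.0377. Tlr4 itself stood at 20.8, 30.1 and 29.9 in control and 23.3, 21.6 and 26.5 in the labelled libraries, with an edgeR adjusted p of 0.489.

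Cd14 is also a marker of macrophages. Of the 8 macrophage and monocyte markers 3 were called, each lower (Cd14, Cd68 and Mrc1), beside 9.93% of all genes called lower. The summed level of that list was 2805, 1955 and 1937 normalized CPM in control and 607, 1775 and 1842 in the labelled libraries, with Lyz2 the most abundant. Lyz2 stood at 1831, 1266 and 1245 in control and 271, 1241 and 1400 in the labelled libraries, so labelled libraries 2 and 3 were near the control pair. Cd163, a scavenger receptor of the same list, went the other way, at 54.0, 29.5 and 29.0 against 47.1, 142 and 88.2 (log2 fold change 1.303, edgeR adjusted p = 0.0892). Cd68, a lysosomal protein, fell from 150, 112 and 116 to 28.5, 42.1 and 30.9 (log2 fold change −1.90, edgeR adjusted p = 0.00409), and Mrc1, the mannose receptor, fell from 215, 180 and 179 to 87.6, 123 and 95.9 (edgeR adjusted p = 0.0160, and 0.0616 with the pair summed and 0.0641 without labelled library 3). The defining genes Adgre1, Itgam and Csf1r had edgeR adjusted p of 0.321, 0.309 and 0.0667, and Csf1r had 0.102 with the pair summed. Their part in the receptor values was not tested.

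Among 6 genes of RAGE shedding and signalling 1 was called, beside 18.1% of all genes. Mmp9, a protease that can shed RAGE, fell from 1121, 834 and 842 to 300, 347 and 287 normalized CPM (log2 fold change −1.58, SE 0.17, edgeR adjusted p = 0.00453, and 0.0260 with the pair summed). The kinase gene Irak4 and the adaptor gene Myd88 had log2 fold changes of −0.51 and −0.47, with edgeR adjusted p of 0.0526 and 0.0637. For 4 other ligands of RAGE edgeR called 0, with 1 at an unadjusted p under 0.05 and 0 called by DESeq2 and limma-voom. App, the amyloid precursor and the most abundant of them, stood at 841, 991 and 992 in control and 2009, 1129 and 1251 in the labelled libraries (edgeR adjusted p = 0.119).

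Some neighbouring S100 genes on the chromosome had unlike log2 fold changes, and others had close ones. In the deposited coordinates, 10 S100 genes lie within 199 kb of chromosome 2, from S100a1 (chr2:175993922-175999544) to S100a9 (chr2:176190361-176193230). S100a7a (chr2:176151288-176156441) lies 10682 bases before S100a8 (chr2:176167124-176167643) and 49107 bases after S100a6 (chr2:176100899-176102180). S100a5, with a log2 fold change of −2.05, lies between S100a4 at −0.09 and S100a6 at 0.03, and next after S100a6 comes S100a7a at 4.06. Other neighbours were close, with S100a1 at 1.06 beside S100a14 at 1.08, S100a16 at 0.03 beside S100a3 at 0.09, and S100a8 and S100a9 both at 2.10. S100a11 and S100a10 lie 2998 kb beyond S100a9. The build of these coordinates is not named in the table, and the submitters' notes list mm10 while the identifiers are those of rat.

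**Figure D3:**
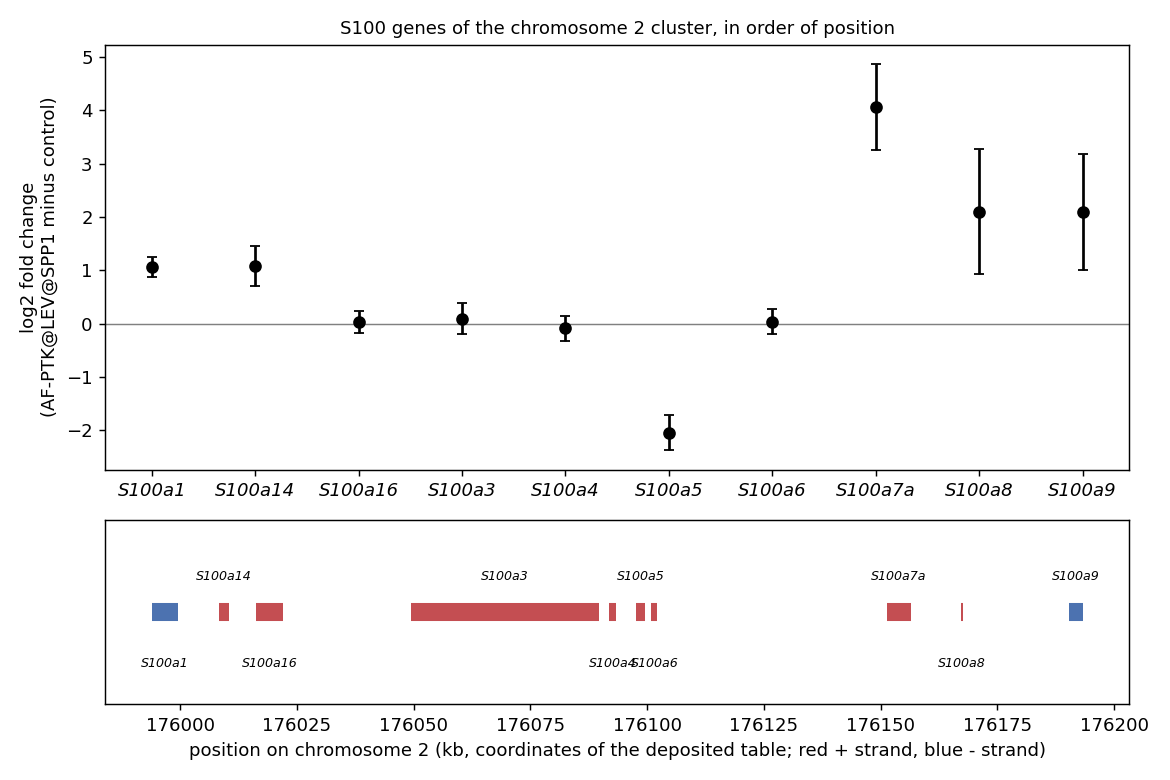
Upper panel, log2 fold change (vertical axis, those labelled AF-PTK@LEV@SPP1 minus control, bars are ± 1 SE of the edgeR fit) of the 10 S100 genes of the chromosome 2 cluster in order of position. Lower panel, their extent to scale in kb. S100a7a stands at 4.06 and S100a5 at −2.05, while S100a16, S100a3, S100a4 and S100a6 lie near 0.

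The promoters of S100a7a and S100a9 are shown because these genes of 1 cluster differed in pattern. RefSeq promoters of build GRCr8, 250 bases before to 50 after the gene start, were matched for 7 of the 10 listed names, and not for S100a1, S100a8 and S100a10. They were searched on both strands for TGACTCA (AP-1, in 4.63% of 33469 promoters), TTGCNNAA (C/EBP, 10.6%), GGNNTTTCC (NF-kB, 6.05%) and TATAAA (the TATA box, 14.2%); none of these letters overlapped another motif in the 7 windows. TATAAA was found in S100a9, starting 42 bases before the gene start, and in S100a4, 31 bases before it, and the other letters were not found in these 7 windows. In the sequences, capitals mark TATAAA, and S100a7a has none. S100a7a is at chr2:178448733-178449032 on the plus strand, and S100a9 at chr2:178490573-178490872 on the minus strand.
S100a7a: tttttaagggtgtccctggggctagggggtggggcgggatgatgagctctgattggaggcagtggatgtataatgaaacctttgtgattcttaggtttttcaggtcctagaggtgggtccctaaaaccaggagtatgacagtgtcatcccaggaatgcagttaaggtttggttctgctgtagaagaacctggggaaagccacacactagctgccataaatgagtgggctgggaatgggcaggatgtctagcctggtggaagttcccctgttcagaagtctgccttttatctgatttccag
S100a9: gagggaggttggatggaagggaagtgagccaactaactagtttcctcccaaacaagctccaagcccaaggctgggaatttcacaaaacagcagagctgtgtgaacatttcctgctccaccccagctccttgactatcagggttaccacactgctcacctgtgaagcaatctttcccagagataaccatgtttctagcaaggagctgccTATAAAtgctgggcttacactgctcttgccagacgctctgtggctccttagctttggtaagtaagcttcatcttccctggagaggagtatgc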

How the data were processed

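Bulk RNA of rat intervertebral disc was measured in 6 libraries, 3 control and 3 labelled AF-PTK@LEV@SPP1 in the sample records, and the table's columns were assigned by their names. The authors deposited counts, whole numbers of reads for each gene, with no normalization. The submitters' processing notes name FastQC, Trimmomatic, HISAT2, featureCounts and DESeq2, and the build mm10; their versions, strand setting and handling of shared reads are not given in the sources used here. Reads of S100a10 and S100a11 that also match copies elsewhere in the genome could therefore have been split. The table describes 1 other gene as similar to S100A11, which held 0 to 3 reads in each library beside 2327 to 4941 for S100a11, and copies without a gene in the table were not analysed here.

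The test was edgeR's quasi-likelihood test (version 4.0.16, R 4.3.3) on counts with TMM normalization and filterByExpr at a minimum count of 10. A call needed an adjusted p under 0.05 by Benjamini-Hochberg over all 15042 genes tested. The common biological coefficient of variation was 0.269. Intervals and the floor of 3 counts cover counting error only. Log2 CPM used a prior count of 2, and profiles were compared over genes whose mean log2 CPM reached 1. Alternatives were DESeq2 1.42.0, limma-voom (limma 3.58.1), other scaling, no filter, a block for the replicate number, leaving out each library, and control libraries 2 and 3 summed. Leaving out control library 1 left only the near-identical pair as control, so its p values and calls rest on 1 control sample.

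Genes named are the members, listed genes that were called (those of Schwann cells left out), defining markers and the 5 nearest profiles, with further listed genes, Spp1 and Krt8 beside them. The members and lists were chosen with earlier results of these data known. Lists of other S100 genes, receptors, ligands, partners and cell type markers were matched by name or older name. The letters searched for AP-1 and NF-kB were changed after a first search, and neither version matched a promoter of a member.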

Additional observations from a re-analysis of the deposited data

How the results depend on the processing

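The members' log2 fold changes each moved by less than 1 SD between samples in 14 alternatives. That SD was wide for some genes, at 2.08 in log2 CPM for S100a8, which lay between 1.45 and 3.71 with each library left out. The direction of S100a8, S100a9 and Ager did not change in these alternatives. Nor did that of S100a7a, S100a1, S100a10 and S100a11, but their groups did not overlap, so leaving out a library could hardly reverse it. Counts of calls moved. All genes called numbered 2727 (45.2% higher), against 741 with the replicate block, 575 (30.4% higher) with the near-identical control pair summed, and 562 to 3745 with each library left out. The genes called from the lists other than the members numbered 21, against 42 with DESeq2, 11 with the replicate block, 7 with the pair summed, and 7 to 40 with each library left out. For the S100 family, receptors, ligands, signalling and partners the count was 10, against 16 with DESeq2, 5 with the replicate block, 4 with the pair summed, and 4 to 13 with each library left out. For cell type markers it was 12, against 27 with DESeq2, 7 with the replicate block, 4 with the pair summed, and 4 to 28 with each library left out. The counts of 21 and 12 include markers of Schwann cells, which are not described here. Cd14, on lists of both kinds, is counted once in the 21. The cause of the moves in these counts was not tested. The replicate numbers do not pair the samples, since same-numbered libraries had correlations of −0.33, −0.28 and −0.08 in their deviations from the group means. Hmgb1 was matched by name alone, to a gene on chromosome 16 with 90 to 128 reads in each library. Its log2 fold change of −0.03 was at 0.00210 with upper quartile factors and 0.00216 with library size alone, and between −0.13 and 0.00699 with each library left out. Sp7, at −0.04, was at 0.0538 with limma-voom and 0.0805 with the replicate block, and between −0.27 and 0.49 with each library left out. With 2 distinct control samples, a difference that misses the threshold does not show equal levels.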

Other observations

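Markers of tissues next to the disc differed between libraries of a group. The 8 skeletal muscle markers matched were highest in labelled library 2, with a summed level of 1058, 1342 and 1355 normalized CPM in control and 994, 10197 and 2680 in the labelled libraries. Acta1, skeletal actin and the most abundant by its mean over the libraries, though Myh4 was above it in control, stood at 285, 344 and 355 against 322, 3219 and 817. By edgeR 0 of 8 were called, with 3 at an unadjusted p under 0.05, 3 called by DESeq2 (beside 26.5% of all genes) and 0 by limma-voom. Without labelled library 1 edgeR called 5, beside 17.4% of all genes. S100a1, a gene of muscle as well as cartilage, was lowest of the labelled libraries in labelled library 2.

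The 5 erythroid markers had summed levels of 115, 38.8 and 36.4 normalized CPM in control and 93.5, 1501 and 698 in the labelled libraries, with Slc4a1, the red cell anion exchanger, the most abundant by its mean over the libraries, though Alas2 was above it in control libraries 2 and 3. By edgeR 0 of 5 were called, with 5 at an unadjusted p under 0.05, 5 called by DESeq2 (beside 26.5% of all genes) and 0 by limma-voom. Without labelled library 1 edgeR called 3, beside 17.4% of all genes. Like S100a8, this list was higher in labelled libraries 2 and 3 than in labelled library 1, but its highest library was labelled 2.

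Adipocyte markers summed to 382, 64.2 and 68.3 normalized CPM in control and 951, 1547 and 676 in the labelled libraries, with Fabp4 the most abundant. Of 5 tested 1 was called, beside 18.1% of all genes. This was Lep, the gene of leptin, which rose from 0.872, 0.193 and 0.183 to 1.82, 19.5 and 5.81 (edgeR adjusted p = 0.0403, 0.139 with the near-identical control pair summed, and 0.0771 and 0.0843 without labelled library 2 or 3). All 5 were higher in each labelled library than in each control library, where the groups did not overlap for 42.3% of all genes in either direction. Of these markers 5 had an unadjusted p under 0.05. DESeq2 called 5 and limma-voom 2, beside 26.5% and 16.8% of all genes, and edgeR called 0 without control library 2 or 3. The 4 osteoblast markers summed to 4212, 1661 and 1651 in control and 1960, 2890 and 1646 in the labelled libraries, with Ibsp the most abundant by its mean over the libraries, though Bglap was above it in labelled library 3. By edgeR 0 of 4 were called, with 0 at an unadjusted p under 0.05 and 0 called by DESeq2 and limma-voom. Bglap, the gene of osteocalcin, stood at 624, 12.1 and 12.6 in control and 567, 872 and 757 in the labelled libraries, so control library 1 differed from the near-identical pair in this gene as it did in S100a8.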
